A study of Mus musculus with 8 samples.

Results

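Bone morphogenetic protein (BMP) signaling was examined in IL-1β-treated articular chondrocytes through 9 genes, chosen by symbol from the 54658 gene symbols of the count table. All 9 were found there. The antagonists were *Nog*, *Grem1*, *Chrd* and *Chrdl1*, and the transcriptional targets were *Id1*, *Id2*, *Id3*, *Id4* and *Smad6*. Primary murine articular chondrocytes were isolated from the femoral heads of wild-type mice aged 3 weeks and cultured. They were given IL-1β at 1 ng/mL or vehicle for 24 h, with 4 samples in each group. Total RNA was sequenced, and reads were counted per gene. Whether the 4 samples of a group came from separate animals or cultures is not stated, so p-values measure the spread between these samples. Abundance is given as CPM, the counts of a gene relative to all counts of its sample on the usual per-megaread scale, adjusted between samples by the trimmed mean of M-values (TMM).

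BMPs are secreted dimers that bind type I and type II serine/threonine kinase receptors, which phosphorylate SMAD1, SMAD5 and SMAD9. These SMADs join SMAD4 in the nucleus and activate target genes, among which the *Id* genes and the inhibitory *Smad6* are direct and rapid examples. Extracellular antagonists bind the ligands and keep them from the receptors. In cartilage the pathway supports chondrocyte differentiation and matrix synthesis, and noggin and gremlin 1 are known there as its brakes.

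IL-1β was followed by lower abundance of all 5 target genes and by changes in opposite directions among the antagonists. *Id4* fell by 1.19 and *Chrdl1* by 1.34 on the log2 scale, and *Grem1* rose by 1.25. *Id1* and *Id2* fell by less, to 71.7% and 71.2% of their vehicle level, *Smad6* to 80.7% and *Id3* to 82.7%. *Chrd* fell to 61.8%. *Nog* was not distinguishable between the groups. Differentially expressed genes (DEGs) were those with a log2 fold change (log2FC) beyond 1 or -1 together with a Benjamini-Hochberg adjusted p-value under 0.05 in edgeR's quasi-likelihood test over all genes tested. SE is the standard error of the log2FC. By this rule, 3 of the 9 genes were DEGs, against 5.21% of the 14404 genes tested. The genes were chosen with earlier results of these data known, so such shares are descriptions and not tests. On the adjusted p-value alone, 8 of the 9 passed, against 40.2% of the genes tested, of which 7 were lower after IL-1β, against 19.8%, and 1 was higher, against 20.4%. The filter on low counts, which required more than 1 CPM in 4 or more samples, was passed by all 9. The median log2FC was -0.48 over the 9 genes and 0.00 over all genes tested.

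Total counts were 10992355 to 17456063 per sample, at which 3 counts, taken as the smallest number shown, equal 0.172 to 0.273 CPM. The cells bore cartilage markers: the 10 on the list summed to 16981 to 17565 CPM with vehicle and to 6137 to 6663 CPM with IL-1β, and 9 of the 10 were downregulated DEGs, while *Prg4* was an upregulated one. None of 6 endothelial markers passed the filter, and their sum stayed between 0.649 and 1.25 CPM in every sample. Of 7 leukocyte markers, *Ptprc*, *Adgre1* and *Itgam* were at or under 1 CPM throughout. The list summed to 14.8 to 16.8 CPM with vehicle and to 29.9 to 33.5 CPM with IL-1β. This rise lay mainly in *Cd14* (log2FC 1.86, adjusted p = 9.30e-15, edgeR) and *Cd68* (log2FC 0.67, adjusted p = 8.49e-07, edgeR). *Lyz2* went the other way (log2FC -0.60, adjusted p = 0.0364, edgeR). *Csf1r* did not pass the filter, and its groups overlapped. Osteoblast markers summed to 126 to 136 CPM with vehicle and to 50.3 to 58.5 CPM with IL-1β. The 6 mural markers summed to 796 to 869 CPM and then to 391.5 to 442 CPM. *Cspg4* held most of the mural sum, with 780 to 850 CPM and then 386 to 435 CPM. *Acta2* fell from a mean of 14.4 to 3.47 CPM, and *Notch3* had an adjusted p-value of 0.292 (edgeR). *Myh11*, *Rgs5* and *Des* were at or under 1 CPM throughout. The 7 fibroblast markers summed to 173 to 182 CPM and 174 to 192 CPM, a sum that hides opposite shifts. *Pdgfra* (log2FC 0.58, adjusted p = 4.32e-11, edgeR) and *Cd34* (log2FC 0.76, adjusted p = 1.06e-08, edgeR) were higher with IL-1β. *Col3a1* was lower (log2FC -0.34, adjusted p = 7.01e-07, edgeR), and *Col1a1* had an adjusted p-value of 0.0761 (edgeR). *Thy1*, *Dpt* and *Pi16* were at or under 1 CPM throughout. In bulk RNA, fewer cells of a type and less RNA per cell cannot be told apart. The part of these shifts in the results below was not tested.

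The promoter sequences of the genes whose letters bear on BMP-responsive transcription were read first. RefSeq promoters of assembly GRCm38.p6 were held for 6 of the 9 genes (*Grem1*, *Chrd*, *Id2*, *Id3*, *Id4* and *Smad6*), and a window of 280 bases was used, from 250 bases before the annotated start to 30 after it. GGCGCC, a GC-rich SMAD motif that reads the same on both strands, lay in 4 of the 6 windows (*Grem1*, *Chrd*, *Id2* and *Id4*), against 10.9% of the 32851 promoter windows of the same length. GTCTAGAC, the palindromic SMAD box, lay in *Smad6* alone of the 6, against 0.192% of all windows. The E-box CANNTG, the letters bound by the bHLH factors that ID proteins sequester, lay in *Chrd*, *Id2* and *Smad6*, against 70.1% of all windows. The standard NF-κB consensus, searched on both strands, lay in 0 of the 6 and in 7.94% of all windows. In the 6 windows, 0 matches of different motifs overlapped. The windows were rich in G and C, with 60.7% to 77.1% against a median of 52.5% over all promoters, and GGCGCC holds only these letters. A match is a description of letters and not of a bound site.

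Windows are printed for *Smad6*, the gene with the palindromic box, for *Id2* and *Id4*, which fell, and for *Grem1*, which rose with the same GGCGCC letters, 5′ to 3′ on the strand of the gene. Capitals mark GTCTAGAC in *Smad6* and GGCGCC in the others. They lie on the minus strand at chr9:64022030-64022309, on the minus strand at chr12:25096063-25096342, on the plus strand at chr13:48260866-48261145 and on the minus strand at chr2:113758619-113758898. The first capital letter lies 4 bases upstream of the start in *Smad6*, 231 in *Id2*, 148 in *Id4* and 78 in *Grem1*.
Smad6: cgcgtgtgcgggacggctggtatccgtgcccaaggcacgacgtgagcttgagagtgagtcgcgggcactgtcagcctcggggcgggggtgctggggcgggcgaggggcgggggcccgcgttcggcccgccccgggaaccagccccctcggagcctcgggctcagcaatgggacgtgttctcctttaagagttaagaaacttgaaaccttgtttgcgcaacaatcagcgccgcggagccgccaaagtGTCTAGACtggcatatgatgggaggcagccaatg
Id2: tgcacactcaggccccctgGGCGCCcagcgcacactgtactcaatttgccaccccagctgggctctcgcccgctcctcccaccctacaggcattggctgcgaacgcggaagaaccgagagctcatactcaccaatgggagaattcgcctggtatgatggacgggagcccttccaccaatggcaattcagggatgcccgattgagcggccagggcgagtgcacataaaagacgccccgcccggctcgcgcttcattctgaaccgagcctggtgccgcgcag
Id4: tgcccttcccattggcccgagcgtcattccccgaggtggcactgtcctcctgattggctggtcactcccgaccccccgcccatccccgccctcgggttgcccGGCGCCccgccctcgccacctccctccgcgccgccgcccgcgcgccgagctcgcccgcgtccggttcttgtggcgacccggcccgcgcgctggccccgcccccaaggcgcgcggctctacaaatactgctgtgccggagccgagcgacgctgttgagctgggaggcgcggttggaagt
Grem1: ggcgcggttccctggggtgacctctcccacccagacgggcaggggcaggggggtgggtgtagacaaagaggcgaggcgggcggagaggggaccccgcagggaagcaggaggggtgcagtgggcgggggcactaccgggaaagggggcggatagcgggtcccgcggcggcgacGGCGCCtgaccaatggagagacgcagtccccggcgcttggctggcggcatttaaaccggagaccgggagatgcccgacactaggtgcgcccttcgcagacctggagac

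*Grem1* (ENSMUSG00000074934.3, chromosome 2, 113746164 to 113758646, GRCm38) encodes gremlin 1, a cystine-knot protein of the DAN family that binds BMP2, BMP4 and BMP7. Its CPM was 4.85, 6.64, 4.28 and 5.06 in vehicle replicates 1 to 4 and 13.2, 12.3, 11.5 and 13.1 in IL-1β replicates 1 to 4. The lowest IL-1β sample thus lay well above the highest vehicle sample. The mean rose from 5.21 ± 1.01 CPM to 12.6 ± 0.798 CPM (SD, n = 4), a 2.38-fold rise (log2FC 1.25, SE 0.115, adjusted p = 3.79e-10, edgeR). The 95% interval of the log2FC was 1.02 to 1.49, above 1 throughout, and 3.45% of the genes tested had a larger change in either direction. Vehicle samples rested on 60 to 115 reads, and their coefficient of variation of 19.5% compared with 10.9% from counting alone.

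*Chrdl1* (ENSMUSG00000031283.16, chromosome X, 143285674 to 143394262) encodes chordin-like 1, a secreted protein with the cysteine-rich repeats through which chordin binds BMPs. Its CPM was 31.4, 34.1, 30.5 and 39.9 with vehicle and 14.2, 12.2, 12.7 and 14.7 with IL-1β. The groups stood clear of each other, with IL-1β the lower. The mean fell from 34.0 ± 4.24 CPM to 13.4 ± 1.21 CPM (SD, n = 4), with a log2FC of -1.34 (SE 0.0803, adjusted p = 3.25e-14, edgeR) and a 95% interval of -1.51 to -1.18. It was the largest change among the 9 genes.

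*Chrd* (ENSMUSG00000006958.14, chromosome 16, 20733127 to 20742384) encodes chordin, which sequesters BMPs until tolloid proteases cleave it. It was the least abundant of the 9 genes per exon length in either group. Its CPM was 5.19, 6.53, 5.63 and 5.91 with vehicle and 3.33, 4.04, 3.68 and 3.26 with IL-1β. The groups did not overlap, and the values rested on 37 to 113 reads per sample. The log2FC was -0.70 (SE 0.133, adjusted p = 9.12e-05, edgeR), with a 95% interval of -0.97 to -0.42 that does not reach -1. *Chrd* shares 3.82% of its exon bases with *Thpo* on the opposite strand, and whether the counting used strand is not given in the sources used here.

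*Nog* (ENSMUSG00000048616.4, chromosome 11, 89300638 to 89302332) encodes noggin, a high-affinity antagonist of several BMPs. Its CPM was 7.79, 8.03, 8.91 and 7.62 with vehicle and 10.7, 8.94, 9.92 and 7.66 with IL-1β. The groups overlapped, since IL-1β replicate 4 lay among the vehicle samples. The log2FC was 0.20 (SE 0.108, 95% interval -0.02 to 0.42, adjusted p = 0.149, edgeR). Without IL-1β replicate 4 it was 0.29 with an adjusted p-value of 0.0387 (edgeR). With any other single sample left out, the adjusted p-value was 0.112 to 0.361 (edgeR).

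**Figure D1:**
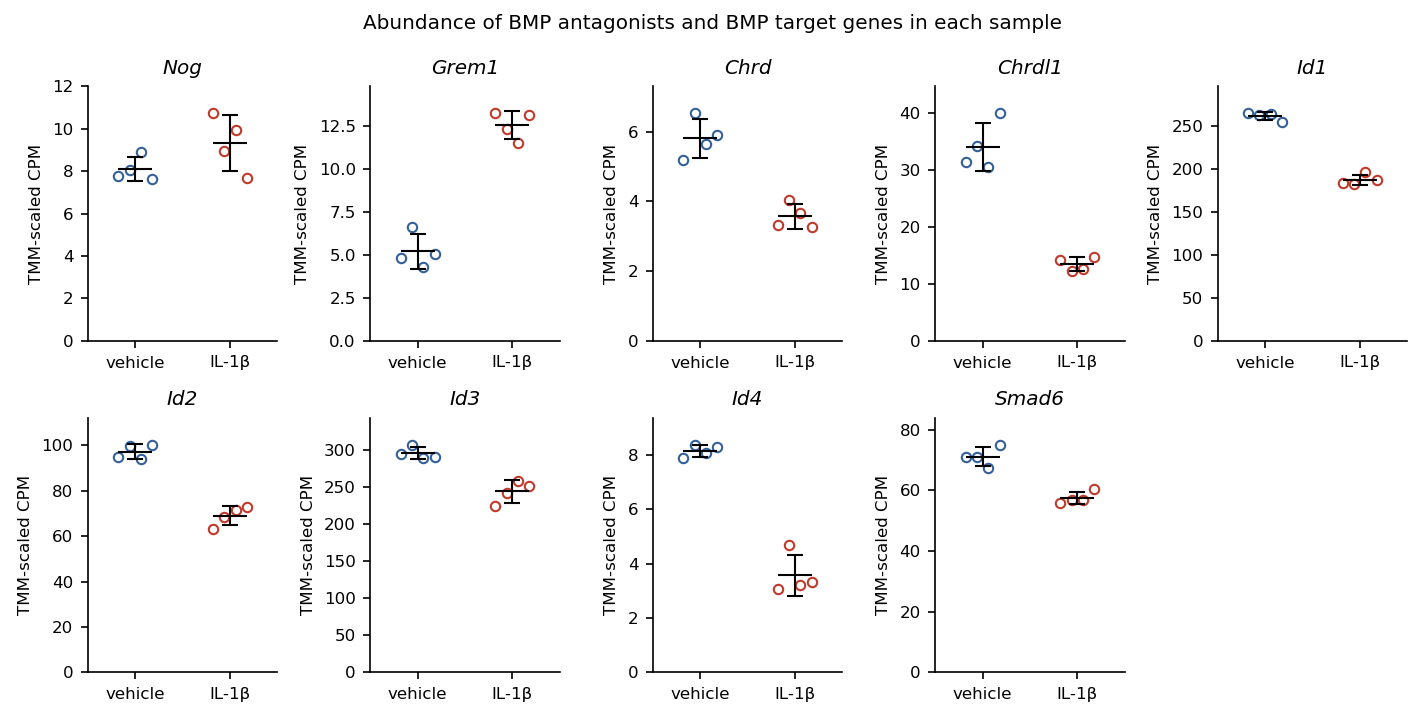
Each panel plots the TMM-scaled CPM of 1 gene on an axis from 0, with a circle for each of the 4 vehicle and 4 IL-1β samples and bars for the mean ± SD. The groups are apart for 8 of the 9 genes, and they overlap for *Nog*, at 7.62 to 8.91 CPM with vehicle and 7.66 to 10.7 CPM with IL-1β.

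The 4 antagonists were then set against each other within samples, by the log2 ratio of the read counts of each pair, which does not depend on the scaling between samples. The ratio of *Grem1* to *Chrdl1* moved furthest. It was -2.71 ± 0.262 with vehicle and -0.10 ± 0.0788 with IL-1β (SD, n = 4), a difference of 2.61 (two-sided exact permutation p = 0.0286, which is the least that 4 samples against 4 can give, adjusted p = 0.0352 over 16 pairs). *Grem1* also gained on *Chrd* by 1.98 and on *Nog* by 1.09 on the log2 scale. *Nog* gained on *Chrdl1* by 1.53 and on *Chrd* by 0.89, and *Chrd* gained on *Chrdl1* by 0.64. Each of these 6 pairs had the same adjusted p-value of 0.0352 from the exact permutation test and no overlap between the groups. For *Grem1* with *Chrdl1* and with *Chrd* this outcome was fixed in advance. Those genes had already separated the groups in opposite directions, so only the size of the difference is new.

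Per kilobase of exon, a scale for comparing different genes, the antagonist transcripts differed in make-up between the groups. Orders and shares between genes depend on this length, which is all annotated exon bases and can exceed that of the transcripts. The 4 levels summed to 11.2 to 12.6 CPM per kb with vehicle and to 10.4 to 12.2 CPM per kb with IL-1β, ranges that overlap. Without the correction for length, they summed to 49.3 to 58.5 CPM with vehicle and to 37.5 to 41.5 CPM with IL-1β, with no overlap. *Chrdl1* held 41.9% ± 3.61 of this sum with vehicle and 18% ± 1.97 with IL-1β (SD, n = 4). *Grem1* held 10.4% ± 1.74 and 27.4% ± 2.35, and *Nog* held 39.9% ± 3.94 and 49.4% ± 4.18. *Chrd* held 7.75% ± 0.448 and 5.19% ± 0.684. With vehicle *Chrdl1* and *Nog* were the leading antagonist transcripts and their ranges overlapped. With IL-1β *Nog* and *Grem1* ranked above *Chrdl1*, and no neighbors in that order overlapped.

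*Id* genes encode small helix-loop-helix proteins without a DNA-binding domain, which pair with bHLH transcription factors and keep them off DNA. *Id1* (ENSMUSG00000042745.9, chromosome 2, 152736251 to 152737410) had 265, 264, 265 and 255 CPM with vehicle and 185, 183, 196 and 188 CPM with IL-1β. Every IL-1β sample lay below every vehicle sample, by more than the spread of either group. The mean fell from 262 ± 4.68 CPM to 188 ± 5.93 CPM (SD, n = 4), with a log2FC of -0.48 (SE 0.0318, adjusted p = 3.24e-13, edgeR). Its 95% interval, -0.54 to -0.41, was the narrowest among the 9 genes. Only 0.979% of the genes tested had a higher vehicle level per kb.

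*Id2* (ENSMUSG00000020644.9, chromosome 12, 25093799 to 25097140), which is also known as a brake on differentiation in several lineages, had 94.7, 99.7, 94.1 and 100.2 CPM with vehicle. With IL-1β it had 63.2, 68.5, 71.5 and 72.6 CPM. The groups did not overlap, and the log2FC of -0.49 (SE 0.0416, adjusted p = 7.35e-11, edgeR) was close to that of *Id1*. *Id3* (ENSMUSG00000007872.3, chromosome 4, 136143497 to 136145755) had 294, 307, 289 and 291 CPM with vehicle and 224, 242, 258 and 251 CPM with IL-1β. Its groups did not overlap either. The log2FC of *Id3* was -0.27 (SE 0.0372, 95% interval -0.35 to -0.20, adjusted p = 5.93e-07, edgeR), the smallest among the 5 targets.

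*Id4* (ENSMUSG00000021379.2, chromosome 13, 48261228 to 48266026), the rarest of the family here, had 7.90, 8.38, 8.06 and 8.28 CPM with vehicle and 3.06, 4.69, 3.21 and 3.33 CPM with IL-1β. IL-1β replicate 2 stood apart from the other IL-1β samples but still lay below every vehicle sample. The mean fell from 8.15 ± 0.214 CPM to 3.57 ± 0.751 CPM (SD, n = 4), with a log2FC of -1.19 (SE 0.129, adjusted p = 1.09e-08, edgeR). The 95% interval, -1.45 to -0.92, spans the threshold of -1. IL-1β samples rested on 34 to 65 reads, and their coefficient of variation of 21.0% compared with 14.1% from counting alone. *Id4* shares 4.44% of its exon bases with the noncoding genes *A330033J07Rik* and *Gm49291* on the opposite strand.

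*Smad6* (ENSMUSG00000036867.7, chromosome 9, 63953076 to 64022059) encodes an inhibitory SMAD that is induced by BMPs and blocks their type I receptors. Its CPM was 70.8, 71.1, 67.5 and 75 with vehicle and 55.8, 56.8, 56.7 and 60.4 with IL-1β. The groups did not overlap. The mean fell from 71.1 ± 3.08 CPM to 57.4 ± 2.02 CPM (SD, n = 4), with a log2FC of -0.31 (SE 0.0419, 95% interval -0.39 to -0.22, adjusted p = 5.90e-07, edgeR). *Smad6*, *Id1*, *Id2* and *Id3* all passed on the adjusted p-value and none passed the fold threshold. In 8 of the 9 genes the groups did not overlap, against 36.8% of the genes tested. In 7 the IL-1β samples were the lower, against 18.2%, and in 1 the higher, against 18.7%.

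**Figure D2:**
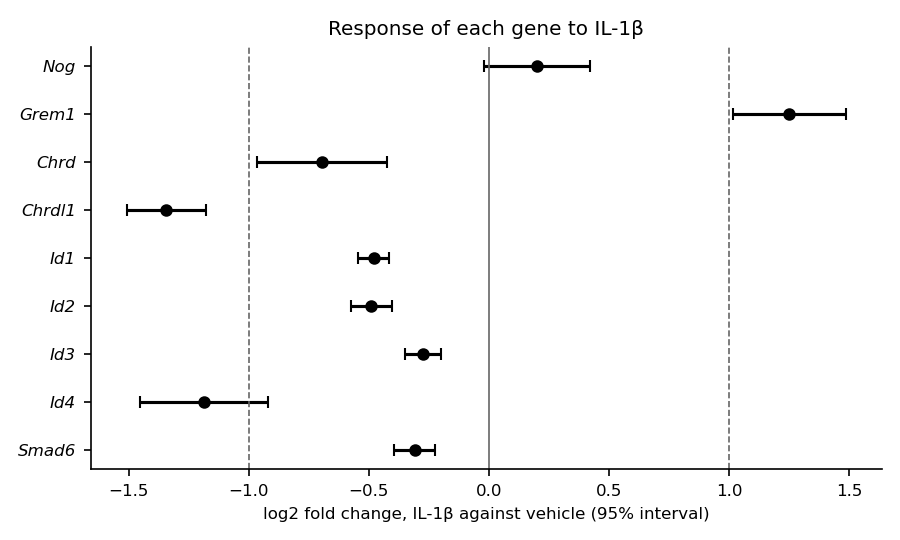
The log2FC between IL-1β and vehicle is plotted for each gene with its 95% interval from the fit, and dashed lines mark -1 and 1. Only the intervals of *Grem1*, from 1.02, and *Chrdl1*, to -1.18, lie wholly beyond a dashed line, while that of *Id4* spans -1 and that of *Nog* spans 0.

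Within samples, the targets fell by unequal amounts. *Id4* lost 0.72 relative to *Id1*, 0.71 relative to *Id2*, 0.93 relative to *Id3* and 0.89 relative to *Smad6* on the log2 scale of the ratios. *Id1* and *Id2* each lost against *Id3*, by 0.20 and 0.22, and *Id2* lost 0.19 against *Smad6*. Each of these 7 ratios had an adjusted p-value of 0.0352 from the exact permutation test, with no overlap between the groups. Between *Id1* and *Id2* the log2 ratio was 1.45 ± 0.0747 with IL-1β and 1.43 ± 0.0690 with vehicle (SD, n = 4), a difference of 0.02 that was within the spread (adjusted p = 0.771, exact permutation test). The ratio of *Smad6* to *Id3* differed by -0.03 (adjusted p = 0.670, exact permutation test) and that of *Smad6* to *Id1* by 0.17 (adjusted p = 0.0653, exact permutation test). In all, 13 of the 16 pairs tested passed. The pairs share genes, so the count is not one of independent results. It also includes *Grem1*/*Chrdl1* and *Grem1*/*Chrd*, whose outcome was fixed in advance. How often other gene pairs of these data would pass was not tested.

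**Figure D3:**
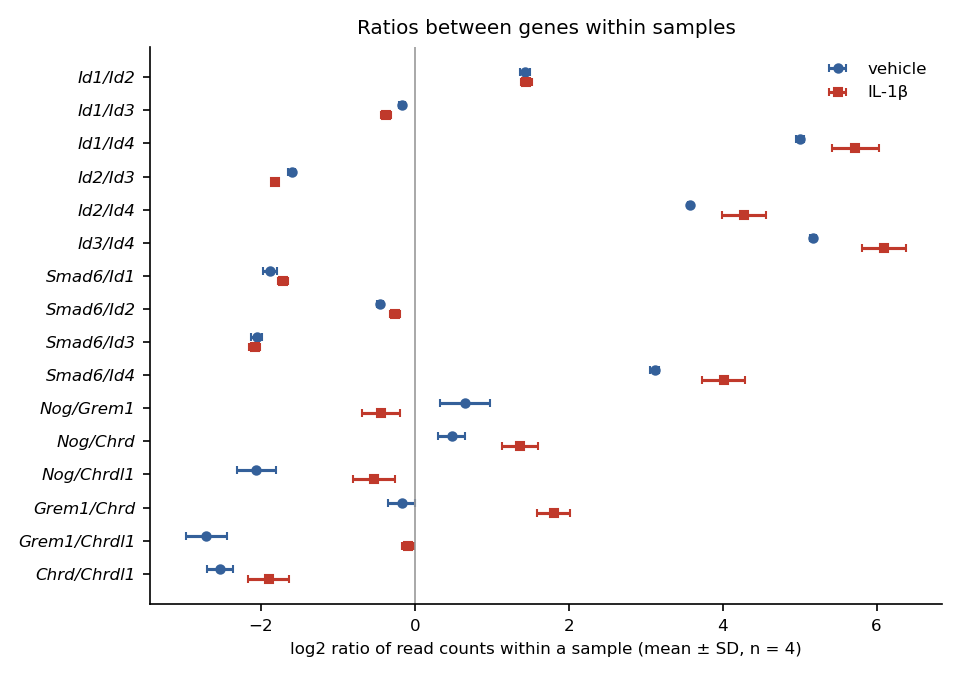
For 16 pairs of genes, the mean ± SD (n = 4) of the log2 ratio of read counts within a sample is plotted for vehicle (circles) and IL-1β (squares). The ratios are not corrected for gene length, so the shift between the groups is what can be read, and it is widest for *Grem1*/*Chrdl1* at 2.61 and narrowest for *Id1*/*Id2* at 0.02.

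Per kilobase of exon, *Id1* and *Id3* led the 9 genes in either group. *Id1* had 226 ± 4.03 CPM per kb with vehicle and 162 ± 5.11 CPM per kb with IL-1β, and *Id3* had 165 ± 4.49 and 136 ± 8.34 (SD, n = 4). *Id2* followed with 39.9 ± 1.33 and 28.3 ± 1.74 CPM per kb, and *Smad6* with 22.2 ± 0.960 and 17.9 ± 0.632. No neighbors among these 4 overlapped in either group. Below them with vehicle came *Chrdl1* (5.03 ± 0.627 CPM per kb), *Nog* (4.77 ± 0.339), *Id4* (2.12 ± 0.0557), *Grem1* (1.26 ± 0.244) and *Chrd* (0.930 ± 0.0894). The vehicle ranges of *Chrdl1* and *Nog* overlapped, as did those of *Grem1* and *Chrd*. With IL-1β the order below *Smad6* was *Nog* (5.49 ± 0.779), *Grem1* (3.03 ± 0.192), *Chrdl1* (1.99 ± 0.178), *Id4* (0.928 ± 0.195) and *Chrd* (0.572 ± 0.0570), with no overlap between neighbors.

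The 4 *Id* genes together summed to 426 to 442 CPM per kb with vehicle and to 311 to 344 CPM per kb with IL-1β. *Id1* held 52.2% ± 0.760 of the sum with vehicle and 49.5% ± 1.15 with IL-1β (SD, n = 4), and *Id3* held 38.1% ± 0.537 and 41.6% ± 0.910. *Id2* held 9.21% ± 0.331 and 8.63% ± 0.261. *Id4* was below 1% in every sample. The E proteins, the ubiquitous bHLH partners that ID proteins bind, are encoded by *Tcf3*, *Tcf4* and *Tcf12*, which together summed to 40.1 to 41.2 CPM per kb with vehicle and 39.6 to 42.3 CPM per kb with IL-1β. On this scale the *Id* sum was 10.3- to 10.8-fold the E protein sum with vehicle and 7.84- to 8.13-fold with IL-1β, given without a test. The length used is all annotated exon bases of a gene, which can exceed the transcript length, so these are not folds of transcript numbers. Without the correction for length, *Tcf4* and *Tcf12* had means of 204 and 205 CPM with vehicle, against 262 for *Id1* and 295 for *Id3*. *Tcf3* had 81.1 CPM, *Id2* 97.2 CPM and *Id4* 8.15 CPM.

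**Figure D4:**
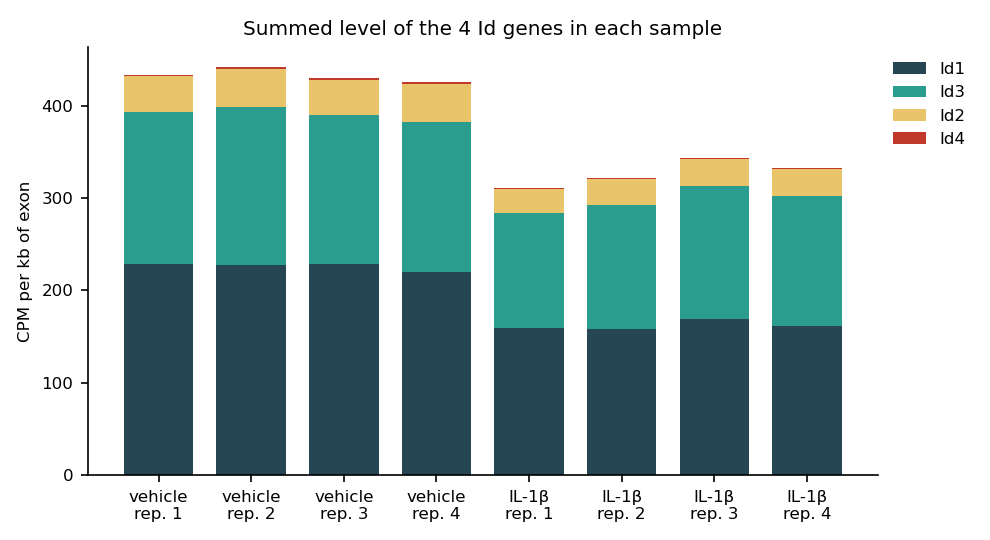
Each bar stacks the levels of *Id1*, *Id3*, *Id2* and *Id4*, in CPM per kb of exon, for 1 sample. The 4 vehicle bars reach 426 to 442 and the 4 IL-1β bars 311 to 344, and *Id4* is barely visible at the top.

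Other genes of the pathway were taken from 7 lists of 77 genes by role, of which 66 passed the filter. Of these 66, 16 were DEGs, 8 upregulated and 8 downregulated, against 2.86% upregulated and 2.35% downregulated among the genes tested. The median log2FC of the 66 was -0.01. The lists, too, were chosen with earlier results of these data known.

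Among other secreted antagonists, 10 of 15 were tested, 3 were upregulated and 1 was downregulated, and the median log2FC was 0.32. *Tsku*, which encodes tsukushi, a leucine-rich BMP-binding protein, had 56.7 to 62.9 CPM with vehicle and 288 to 303 CPM with IL-1β (log2FC 2.31, SE 0.0354, adjusted p = 2.35e-28, edgeR). *Fstl1*, encoding a follistatin-related glycoprotein, rose from 77.9 ± 2.42 to 342 ± 8.18 CPM (SD, n = 4), a log2FC of 2.13. *Nbl1*, which encodes the founding member of the DAN family to which gremlin 1 belongs, rose from 20.2 ± 0.890 to 60.7 ± 0.655 CPM (log2FC 1.59). *Chrdl2*, the relative of *Chrdl1*, fell as *Chrdl1* did, from 1.58 ± 0.131 to 0.656 ± 0.149 CPM, on 7 to 30 reads per sample (log2FC -1.25, adjusted p = 0.000293, edgeR). Its IL-1β samples had 0.496 to 0.832 CPM, so it passed the filter only through its vehicle samples, and its p-value is a description. On the adjusted p-value alone, 6 of the 10 were higher, against 20.4% of all genes tested, and 3 were lower, against 19.8%.

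Of 11 ligand genes, 10 were tested, with 2 upregulated, 3 downregulated and a median log2FC of -0.10. On the adjusted p-value alone, 2 of the 10 were higher, against 20.4% of all genes tested, and 4 were lower, against 19.8%. *Gdf10*, also called BMP3B, fell from 164 ± 4.6 CPM to 20.7 ± 1.89 CPM (SD, n = 4), the largest change among the tested genes of these 7 pathway lists (log2FC -2.97, SE 0.0472, adjusted p = 5.81e-28, edgeR). *Gdf5*, a ligand of joint formation, rose from 2.38 ± 0.306 to 11.2 ± 0.729 CPM (log2FC 2.23). *Bmp8a* and *Bmp7* fell, with log2FCs of -1.99 and -1.08. *Bmp3*, a ligand that opposes other BMPs, rose from 8.49 ± 0.392 to 17.2 ± 1.02 CPM (log2FC 1.01).

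All 11 receptor and coreceptor genes were tested, and 2 were upregulated, with a median log2FC of 0.06. On the adjusted p-value alone, 5 of the 11 were higher, against 20.4% of all genes tested, and 2 were lower, against 19.8%. *Tgfbr3*, encoding the coreceptor betaglycan, rose from 74.1 ± 2.33 to 276 ± 2.01 CPM (log2FC 1.90). *Acvr2b*, a type II receptor, rose from 0.427 ± 0.133 to 1.14 ± 0.153 CPM on 4 to 19 reads per sample (log2FC 1.42, adjusted p = 0.000599, edgeR). Its vehicle samples had 0.231 to 0.519 CPM, so it passed the filter only through its IL-1β samples. Its p-value is therefore a description.

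Of the 4 SMAD genes that carry the signal, 0 were DEGs by edgeR or DESeq2, and 2 had an unadjusted p-value under 0.05 in edgeR, against 46.6% of all genes tested. *Smad4*, the most abundant of them per exon length, had a log2FC of 0.13 (adjusted p = 0.00795, edgeR). *Smad1* and *Smad5* had log2FCs of 0.05 and -0.05 (adjusted p = 0.50 and 0.349, edgeR), and *Smad9*, itself a BMP target, fell from 72.7 ± 2.4 to 39.8 ± 3.01 CPM (log2FC -0.86, adjusted p = 3.29e-15, edgeR). These 3 were named after their values were seen.

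Among 11 intracellular inhibitors of the pathway, 0 were DEGs by edgeR or DESeq2, while 9 had an unadjusted p-value under 0.05 in edgeR, against 46.6% of all genes tested. On its adjusted p-value alone, 5 were higher, against 20.4%, and 3 were lower, against 19.8%. *Fkbp1a*, encoding a protein that holds type I receptors inactive, had a log2FC of 0.12. *Smad7*, the inhibitory relative of *Smad6*, had a log2FC of -0.12 (adjusted p = 0.00769, edgeR) and was named after its values were seen.

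Of 14 other genes known as BMP targets, 12 were tested, 1 was upregulated and 4 were downregulated, with a median log2FC of -0.68. On the adjusted p-value alone, 8 of the 12 were lower, against 19.8% of all genes tested, and 1 was higher, against 20.4%. *Dlx3* and *Dlx5*, homeobox genes of skeletal development, had log2FCs of -1.5 and -1.40, *Sp7*, the osteoblast factor osterix and also on the osteoblast marker list, had -1.42, and *Hey1* had -1.16. *Tbx3*, a T-box repressor, went the other way, from 0.637 ± 0.268 to 4.08 ± 0.932 CPM (log2FC 2.64, adjusted p = 5.04e-10, edgeR), with 5 to 15 reads in the vehicle samples. Its vehicle samples had 0.357 to 0.867 CPM, so it passed the filter only through its IL-1β samples. *Dlx3*, at 0.649 to 1.72 CPM with IL-1β, could not have passed without its vehicle samples, at 2.83 to 3.35 CPM. The calls of *Tbx3* and *Dlx3* are therefore descriptions.

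Of 11 bHLH genes, 8 were tested and 0 were DEGs by edgeR or DESeq2, with 5 at an unadjusted p-value under 0.05 in edgeR, against 46.6% of all genes tested. The adjusted p-value alone was passed by 2 that were higher and 2 that were lower, 4 of 8, which is near the 40.2% of all genes tested. *Tcf3*, the most abundant per exon length, had a log2FC of 0.13 (adjusted p = 0.00875, edgeR), and its groups overlapped.

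**Figure D5:**
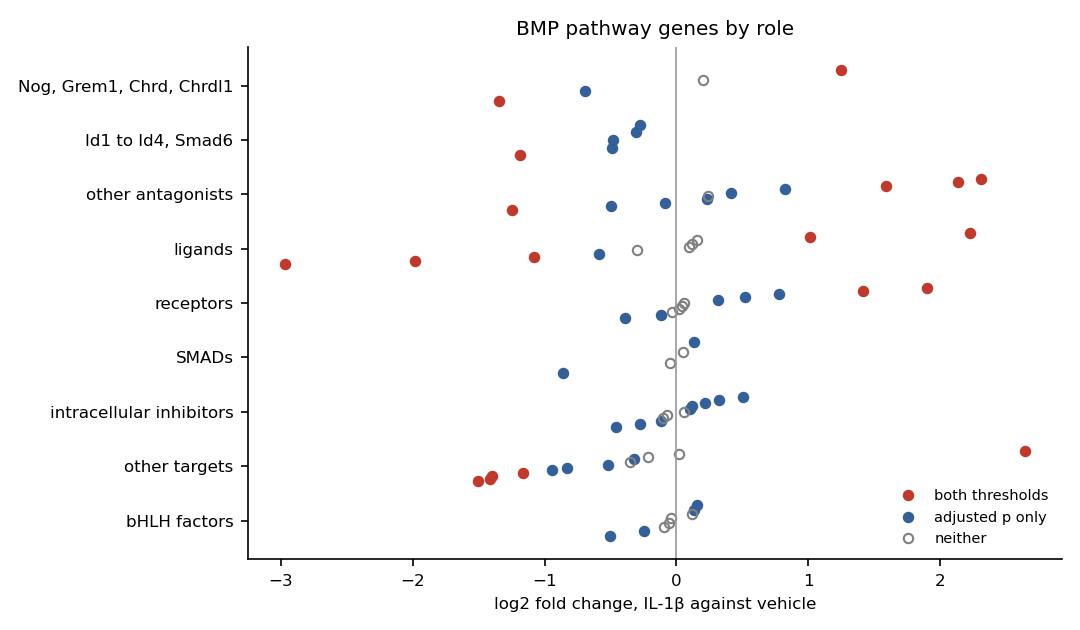
Each point is a tested gene, placed by its log2FC between IL-1β and vehicle within its role in the pathway. Filled red points pass both thresholds, filled blue points pass the adjusted p-value alone and open points pass neither, and the widest spread is among the ligands, from -2.97 for *Gdf10* to 2.23 for *Gdf5*.

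The genes whose abundance followed *Id1* most closely over the 8 samples were *Ltbp3*, *Igf2* and *Anxa11*, with Pearson's r of log2(CPM + 1) of 0.999, 0.998 and 0.997. For *Grem1* they were *Grhpr*, *Gsto1* and *Dym*, with r of 0.993, 0.991 and 0.991. These r mostly carry the difference between the groups, and 1245 and 1165 of the 10338 genes compared had an r above 0.9 with *Id1* and *Grem1*, respectively.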

How the data were processed

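RNA-Seq covered primary murine articular chondrocytes, 4 samples treated with IL-1β and 4 with vehicle. The deposited values are counts per gene symbol, which the authors obtained with featureCounts after quality trimming (cutadapt) and STAR alignment to mm10 and its GENCODE vM20 annotation. The submitters' processing notes give STAR 2.4.2a and the methods another version. The methods also name RUVseq for batch correction, and it is not stated on which side of it these counts lie. The deposited gene lengths (in bases) equaled the exon bases of all 9 genes in GENCODE vM21 (GRCm38), from which positions were taken.

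Counts were TMM-normalized and compared in R 4.3.3 with the quasi-likelihood test of edgeR 4.0.16 (with limma 3.58.1) for the 14404 genes that exceeded 1 CPM in 4 or more samples. Intervals use the moderated t distribution of this fit. Within-sample ratios added 0.5 to each count and used exact permutation tests (scipy 1.17.1), Benjamini-Hochberg adjusted over 16 pairs. The scripts were tested on simulated data. None of the 9 genes fell below the filter, so the permutation test planned for such genes was not needed.

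The genes and lists were chosen with earlier results of these data known. Named genes are the 9, the DEGs of each list (at most 6) or, without any, its most abundant gene per exon length, and for *Id1* and *Grem1* the 3 other genes of at least 5 CPM with the highest r. Smallest abundances and intervals from counting include no error beyond counting, because PCR copies of a molecule were not marked by identifiers. Alternatives were DESeq2 1.42.0, its size factors or total library size in edgeR, other filters, the replicate number as a block, 1 factor by the RUVs procedure, and each sample left out. Promoter windows came from RefSeq (GRCm38.p6).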

Additional observations from a re-analysis of the deposited data

Results flagged for a closer look

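Dixon's ratio was used to ask whether any sample stood apart within its group, for the 9 genes, the named pathway genes and the total counts. In 4 of the 58 groups of 4 values, 1 sample lay beyond the 95% critical value, against 2.9 groups by chance at 1 in 20. Vehicle replicate 4 had 255 CPM of *Id1*, where the other vehicle samples had 264 to 265 CPM, and its log2 fold change was -0.49 without that sample. IL-1β replicate 2 had 4.69 CPM of *Id4*, where the others had 3.06 to 3.33 CPM, and its log2 fold change was -1.34 without it. Vehicle replicate 3 stood apart in *Bmp7* (8.34 CPM, others 9 to 9.07 CPM) and in *Dlx5* (25.0 CPM, others 20.1 to 20.4 CPM).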

How the results depend on the processing

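*Grem1*, *Chrdl1* and *Id4* were past both thresholds as reported and in each of the 15 alternatives, and the 9 genes kept their directions in all of them. Over the alternatives other than leaving a sample out, the log2 fold change lay between 1.24 and 1.27 for *Grem1*, -1.35 and -1.34 for *Chrdl1*, and it was -1.19 for *Id4*. With each sample left out in turn, it lay between 0.14 and 0.29 for *Nog*, with 8 to 9 of the 9 genes past the adjusted p-value. Leaving out single samples gave 1.17 to 1.40 for *Grem1*, -1.39 to -1.26 for *Chrdl1* and -1.34 to -1.12 for *Id4*. All DEGs numbered 751 (412 upregulated, 339 downregulated), 1206 (635 and 571) with no filter on low counts and 511 with a CPM above 1 in all 8 samples, where 266 were upregulated, since these filters change which genes are tested. The 66 pathway genes held 16 DEGs, and 12 with that stricter filter, which *Chrdl2*, *Acvr2b*, *Dlx3* and *Tbx3* did not pass. Leaving out an offset kept 13 ratios past the threshold. With a sample left out, the exact test of a ratio cannot reach an adjusted p-value under 0.05, so these were given no test, and the ratio of *Smad6* to *Id3* then ran from -0.06 to 0.00. The replicate numbers are shared by the groups, but same-numbered samples did not deviate together (r between -0.070 and 0.042 across genes). A fit with a replicate block gave 751 DEGs, 745 of them shared, and the block changed no call among the 9 genes (log2 fold change of *Nog* 0.20, adjusted p = 0.159, edgeR). Depth limits *Chrd* and *Id4* most, with 34 to 145 reads per sample.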
